A study of Homo sapiens with 6 samples.

Results

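The 9 genes described here are NFE2L2, KEAP1, NQO1, TXNRD1, TXN, SRXN1, PGD, TALDO1 and TKT, which cover the NRF2 regulator pair, a quinone reductase, the cytosolic thioredoxin system and enzymes of the pentose phosphate pathway. They were taken by gene symbol from a table of 60605 genes, each symbol matched 1 row, and all 9 passed the filter on low values that left 12865 genes for testing. The libraries came from HepG2, an established human liver cancer cell line, infected with lentivirus that carried either a short hairpin against circFTO (sh-circFTO, 3 libraries) or a control hairpin (sh-control, 3 libraries). The series title calls circFTO a circular RNA induced by c-Myc and ties it to growth without serine and glycine. Per the labels' protocols, both groups grew in DMEM with serum and antibiotics, both are labelled WT, and no label names a serine or glycine deprivation. The cells are called epithelial in one label and mesenchymal in another. Whether each library was a culture or infection of its own, and how many hairpin sequences were used, is not labelled. The p-values therefore reflect the spread between the 6 libraries alone, which may be technical.

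NRF2, the protein of NFE2L2, is a transcription factor that turns on genes against oxidants and electrophiles. KEAP1 holds it in the cytosol and passes it to a CUL3 ubiquitin ligase, which has it degraded until oxidants modify KEAP1. NRF2 and small MAF proteins bind the antioxidant response element of their targets, among them quinone and thioredoxin reductases and enzymes that supply NADPH, the reducing power on which the thioredoxin system runs. Much of this control acts on NRF2 protein, which RNA counts do not measure.

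Of the 9 genes, 8 fell and 1 rose in sh-circFTO libraries, and the groups did not overlap for any of the 9. Across all tested genes, 34.8% were called lower and 34.9% higher, 69.7% together, and the groups did not overlap for 71.5%, so being called is common in this comparison. NQO1 had the largest fall, to 249 ± 7.49 CPM (counts relative to library size, scaled by TMM) in sh-circFTO, against 866 ± 22.6 CPM in sh-control (SD, n = 3 each). NFE2L2 fell to 104 ± 2.92 CPM in sh-circFTO, against 297 ± 8.24 CPM in sh-control. KEAP1 was the gene that rose, with 74.8 ± 5.71 CPM in sh-circFTO and 64.8 ± 2.14 CPM in sh-control. A fall of at least 2-fold was called for 4 of the 9 genes (NFE2L2, NQO1, SRXN1 and TKT) and for 7.62% of all tested genes. The median log2 fold change of the 9 genes was -0.61, against 0.001 over all tested genes. The 9 genes were chosen with earlier results of these data known, so these contrasts with all tested genes are a description. A call here is an adjusted p below 0.05 in the quasi-likelihood test of edgeR, with p-values adjusted by the Benjamini-Hochberg method over all tested genes.

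Total counts ran from 13361333 to 15809084 in sh-circFTO libraries and from 14932270 to 16178079 in sh-control libraries. FTO, the host gene of the circle, had 55.5, 56.5 and 59.3 CPM in sh-circFTO libraries and 59.4, 56.97 and 55.7 CPM in sh-control libraries, and gene counts do not measure the circle itself. All 8 hepatocyte markers were tested, and their summed level was 3430 to 3510 FPKM in sh-circFTO and 4310 to 4420 FPKM in sh-control. Each was called lower with TMM, but APOB and SERPINA1 carried most of the difference. With library size as the only scaling, ALB (-0.06, adjusted p = 0.0721 by edgeR) and APOA1 (-0.07, adjusted p = 0.105 by edgeR) were not called. In sh-circFTO and sh-control, APOB averaged 179 and 487 FPKM, SERPINA1 512 and 899 FPKM, and ALB 1340 and 1390 FPKM. The leukocyte markers PTPRC and CD163 had 0 counts in every library, which allows up to 3 counts a library, and LYZ carried nearly all of that list's sum, 120 to 122 FPKM in sh-circFTO and 526 to 580 FPKM in sh-control. The sums were 9.6 to 10.0 and 1.27 to 1.84 FPKM for 4 endothelial markers, 25.3 to 26.8 and 23.1 to 26.1 FPKM for 5 fibroblast and stellate markers, and 634 to 637 and 158 to 169 FPKM for 3 cholangiocyte markers, in sh-circFTO and sh-control. Single genes carried most of the difference in the endothelial and cholangiocyte sums: TIE1 averaged 8.07 FPKM in sh-circFTO and 0.573 FPKM in sh-control, with 2 and 4 counts of CDH5 and 30 and 18 of VWF, and KRT19 averaged 590.0 FPKM in sh-circFTO and 118 FPKM in sh-control. Of the other cholangiocyte markers, SOX9 was slightly lower (log2 fold change -0.20, adjusted p = 0.000133 by edgeR) and KRT7 had 47 counts in sh-circFTO and 8 in sh-control. SOX9 was not called with library size as the only scaling (-0.06, adjusted p = 0.221 by edgeR). Mitochondrially encoded genes took 6.47% to 6.75% of counts in sh-circFTO and 7.72% to 8.11% in sh-control. The part of these shifts in the results was not tested, and fewer cells of a kind and less RNA per cell cannot be told apart in such bulk libraries. Directions are relative to the typical gene: without TMM, the median log2 fold change of all tested genes moved by 0.145, and 5700 genes were called higher and 3471 lower, against 4490 and 4479.

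The promoters of these genes were searched for the core of the antioxidant response element, TGACNNNGC, on both strands, in RefSeq windows (GRCh38.p14) from 250 bases before to 50 after a gene's start. All 9 genes matched the table, with 12 windows in all. The core occurred in 4 of the 12 windows (33.3%), those of KEAP1, TXNRD1 and PGD, and in 13.3% of the 35114 windows of all genes. Counted by gene, it occurred in 3 of these 9 genes and in 4384 of all 27303 genes with a window. Windows that hold the core are printed here, with NQO1, the gene that fell most, for comparison, and capitals mark each match in the direction of the window.
TXNRD1, chr12:104215529-104215828, plus strand: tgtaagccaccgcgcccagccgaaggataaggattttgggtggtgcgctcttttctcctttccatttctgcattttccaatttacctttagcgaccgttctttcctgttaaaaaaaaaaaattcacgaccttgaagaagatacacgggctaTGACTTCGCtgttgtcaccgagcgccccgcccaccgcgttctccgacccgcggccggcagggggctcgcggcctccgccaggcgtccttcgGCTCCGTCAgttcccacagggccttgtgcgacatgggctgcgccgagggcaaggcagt
TXNRD1, chr12:104286782-104287081, plus strand: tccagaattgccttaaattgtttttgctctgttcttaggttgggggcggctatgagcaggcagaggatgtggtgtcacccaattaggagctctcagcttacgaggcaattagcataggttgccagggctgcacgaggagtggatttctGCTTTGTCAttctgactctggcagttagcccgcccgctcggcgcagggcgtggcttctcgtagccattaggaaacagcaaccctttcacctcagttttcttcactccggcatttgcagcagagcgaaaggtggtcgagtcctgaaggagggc
PGD, chr1:10398814-10399113, plus strand: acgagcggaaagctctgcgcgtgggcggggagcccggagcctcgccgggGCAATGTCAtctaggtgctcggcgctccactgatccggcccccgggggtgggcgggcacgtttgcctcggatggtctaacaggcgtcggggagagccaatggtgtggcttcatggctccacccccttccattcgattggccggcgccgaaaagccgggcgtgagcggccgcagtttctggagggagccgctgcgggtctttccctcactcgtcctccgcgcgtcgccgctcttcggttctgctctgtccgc
KEAP1, chr19:10502722-10503021, minus strand: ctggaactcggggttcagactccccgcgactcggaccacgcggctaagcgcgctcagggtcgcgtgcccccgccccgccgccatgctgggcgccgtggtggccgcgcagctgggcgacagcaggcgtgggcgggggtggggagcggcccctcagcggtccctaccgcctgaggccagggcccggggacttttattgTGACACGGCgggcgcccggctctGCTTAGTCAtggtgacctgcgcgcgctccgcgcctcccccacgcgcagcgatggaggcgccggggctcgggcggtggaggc
NQO1, chr16:69726511-69726810, minus strand: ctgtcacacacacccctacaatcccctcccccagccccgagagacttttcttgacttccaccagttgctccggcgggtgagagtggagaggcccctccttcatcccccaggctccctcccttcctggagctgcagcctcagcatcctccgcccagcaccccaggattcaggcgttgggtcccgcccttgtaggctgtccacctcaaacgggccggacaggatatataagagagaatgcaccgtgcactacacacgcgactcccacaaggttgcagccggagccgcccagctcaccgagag
In the first TXNRD1 window the matches began 99 and 8 bases before the start, and in the second 102 bases before it. The match of PGD began 201 bases before the start and those of KEAP1 54 and 31 bases before it. A match describes letters and not a bound site, and a window without one, as for NQO1, says only that these letters are not in that window.

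The RNAs of both regulators changed, in opposite directions. NFE2L2 (ENSG00000116044, GRCh38 chromosome 2, 177227595 to 177392697, minus strand) had 106, 105 and 101 CPM in the sh-circFTO libraries, against 288, 298 and 304 CPM in the sh-control libraries. Each sh-circFTO library held less than each sh-control library by a wide margin, and neither group had a library that stood apart. For NFE2L2, edgeR gave a log2 change of -1.51 (SE 0.0434) at an adjusted p = 1.7e-22, a 2.86-fold lower level, and 2.5% of all tested genes fell further. KEAP1 (ENSG00000079999, chromosome 19, 10486125 to 10503558, minus strand) encodes the adaptor that presents NRF2 for degradation. It had 72.5, 70.7 and 81.3 CPM in the sh-circFTO libraries and 62.7, 67.0 and 64.6 CPM in the sh-control libraries. The groups did not overlap, but the closest libraries lay only a few CPM apart and the third sh-circFTO library was the highest. For KEAP1, edgeR gave a log2 change of 0.21 (SE 0.0604) at an adjusted p = 0.00315, and without sh-circFTO replicate 3 it was 0.14 and no longer called (adjusted p = 0.0548 by edgeR). All 8 falls were still called with any 1 library left out.

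**Figure D1:**
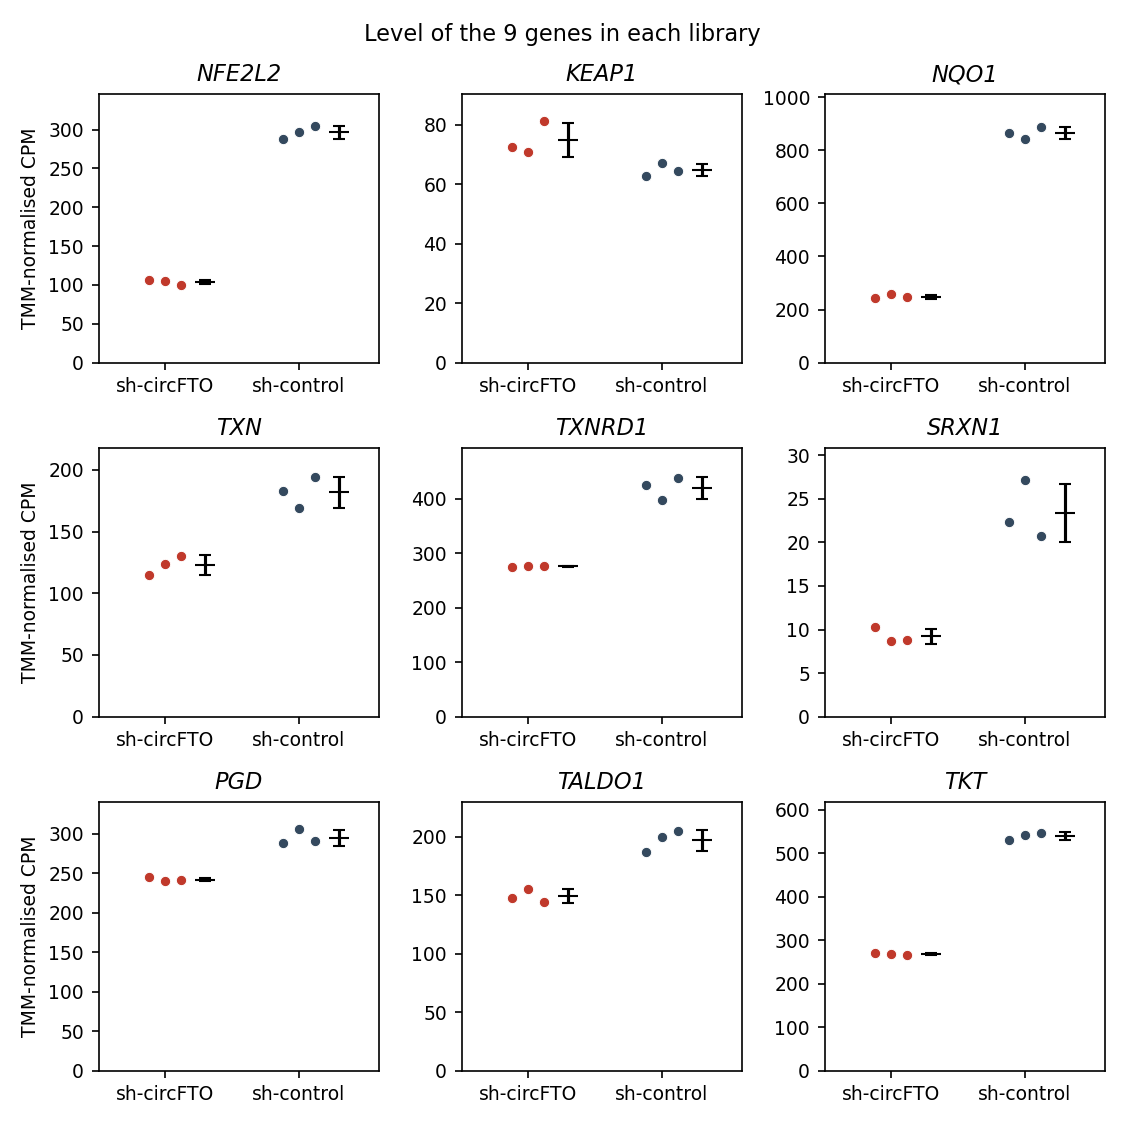
TMM-normalised CPM (y axes, from 0) of the 9 genes in each library, sh-circFTO left and sh-control right, with points for libraries and a bar for the mean ± SD (n = 3 each). The sh-circFTO points lie below the sh-control points in 8 panels and above them for KEAP1, where they sit between 70.7 and 81.3 CPM against 62.7 to 67.0 CPM.

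Within a library the balance of the regulators can be read free of scaling between libraries, from FPKM, which scales counts to exon length and library total. The ratio of KEAP1 to NFE2L2 was 1.09, 1.07 and 1.28 in sh-circFTO libraries, against 0.346, 0.357 and 0.337 in sh-control libraries. The ratio was higher in every sh-circFTO library than in any sh-control library. Whether it lies above 1 depends on the annotated exon lengths, 3573 bases for KEAP1 and 5671 for NFE2L2, since by counts NFE2L2 exceeded KEAP1 in both groups (4802 against 3460 in sh-circFTO, 13003 against 2841 in sh-control). The mean log2 ratio differed by 1.72, a 3.3-fold higher ratio in sh-circFTO (two-sided exact permutation p = 0.1, the smallest that 3 libraries against 3 allow, and 0.117 adjusted over 7 ratios).

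The quinone reductase NQO1 (ENSG00000181019, chromosome 16, 69706996 to 69726668, minus strand), which reduces quinones with NADH or NADPH and is a much used marker of NRF2 activity, had 243, 257 and 248 CPM in sh-circFTO libraries. In sh-control libraries it had 866, 844 and 890 CPM, more than 3 times as much in each. For NQO1, edgeR gave a log2 change of -1.80 (SE 0.0392) at an adjusted p = 4.26e-25, and 1.4% of all tested genes fell further. Of the counts of the 9 genes together, NQO1 held 16.3% to 17.1% in sh-circFTO and 29.6% to 30.3% in sh-control. The 9 genes together took 0.156% to 0.158% of all counts in sh-circFTO and 0.271% to 0.279% in sh-control. The FPKM ratio of NQO1 to NFE2L2 was lower in every sh-circFTO library, with 4.37, 4.67 and 4.70 in sh-circFTO libraries and 5.74, 5.42 and 5.58 in sh-control libraries, a log2 difference of -0.28 (two-sided exact permutation p = 0.1, and 0.117 adjusted over 7 ratios).

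In the cytosolic thioredoxin system, SRXN1 fell most and the thioredoxin pair fell less. Thioredoxin, the protein of TXN (ENSG00000136810, chromosome 9, 110243810 to 110256507, minus strand), reduces disulfides in other proteins. TXN had 115, 124 and 130 CPM in sh-circFTO libraries, against 183, 169 and 194 CPM in sh-control libraries. For TXN, edgeR gave a log2 change of -0.56 (SE 0.052) at an adjusted p = 8.88e-11. TXNRD1 (ENSG00000198431, chromosome 12, 104215779 to 104350307, plus strand) encodes the selenoprotein that reduces thioredoxin again with NADPH. TXNRD1 had 275, 276 and 277 CPM in sh-circFTO libraries, against 426, 398 and 438 CPM in sh-control libraries. For TXNRD1, edgeR gave a log2 change of -0.61 (SE 0.0408) at an adjusted p = 8.5e-14. The sh-circFTO libraries of TXNRD1 were nearly identical, while those of sh-control spread more widely. Counts per gene do not separate the transcripts that start at its 2 RefSeq windows.

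The proportion of TXNRD1 to TXN did not separate the groups. The FPKM ratio of TXNRD1 to TXN was 0.360, 0.336 and 0.320 in sh-circFTO libraries and 0.351, 0.354 and 0.340 in sh-control libraries, so the groups overlapped. The log2 difference was -0.04 (two-sided exact permutation p = 0.6). SRXN1 (ENSG00000271303, chromosome 20, 646615 to 653200, minus strand) encodes sulfiredoxin, which repairs overoxidised peroxiredoxins. It had 10.3, 8.66 and 8.80 CPM in sh-circFTO libraries, from 425 counts in all, and 22.4, 27.1 and 20.7 CPM in sh-control libraries, from 1031 counts. It was the least abundant of the 9 genes and had the widest error, with a log2 fold change of -1.35 (SE 0.118, adjusted p = 2.94e-11 by edgeR). PRDX1, the abundant cytosolic peroxiredoxin that sulfiredoxin repairs, had 606, 635 and 658 CPM in sh-circFTO libraries and 599, 512 and 595 CPM in sh-control libraries. Its log2 fold change was 0.15 (adjusted p = 0.00439 by edgeR), a call lost without sh-control replicate 2 (0.08, adjusted p = 0.0694 by edgeR). The FPKM ratio of SRXN1 to PRDX1 was 0.0113, 0.00908 and 0.00889 in sh-circFTO libraries and 0.0248, 0.0353 and 0.0232 in sh-control libraries, 2.82-fold lower in sh-circFTO (two-sided exact permutation p = 0.1, and 0.117 adjusted over 7 ratios).

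The pentose phosphate genes fell unevenly. PGD (ENSG00000142657, chromosome 1, 10398592 to 10420511, plus strand) encodes the dehydrogenase that makes NADPH in the oxidative arm. PGD had 244, 240 and 241 CPM in sh-circFTO libraries, against 288, 306 and 290 CPM in sh-control libraries. For PGD, edgeR gave a log2 change of -0.29 (SE 0.0402) at an adjusted p = 3.07e-07, the smallest of the 8 falls. TALDO1 (ENSG00000177156, chromosome 11, 747415 to 765012, plus strand), a transaldolase of the non-oxidative arm, had 148, 156 and 144 CPM in sh-circFTO libraries, against 187, 199 and 205 CPM in sh-control libraries. For TALDO1, edgeR gave a log2 change of -0.40 (SE 0.0454) at an adjusted p = 5.93e-09. These changes are moderate beside the rest of the table: 31.7% of all tested genes fell further than PGD and 25.8% further than TALDO1.

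TKT (ENSG00000163931, chromosome 3, 53224712 to 53256052, minus strand) encodes transketolase, which with transaldolase links the pentose phosphates to glycolysis. It had 272, 268 and 267 CPM in sh-circFTO libraries, against 531, 543 and 547 CPM in sh-control libraries. The level was 2.01-fold lower in sh-circFTO, with little spread in either group. For TKT, edgeR gave a log2 change of -1.01 (SE 0.0378) at an adjusted p = 9.16e-20, and 7.7% of all tested genes fell further. The FPKM ratio of PGD to TKT was 2.57, 2.55 and 2.58 in sh-circFTO libraries and 1.55, 1.61 and 1.51 in sh-control libraries. The log2 difference was 0.72 (two-sided exact permutation p = 0.1, and 0.117 adjusted over 7 ratios).

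**Figure D2:**
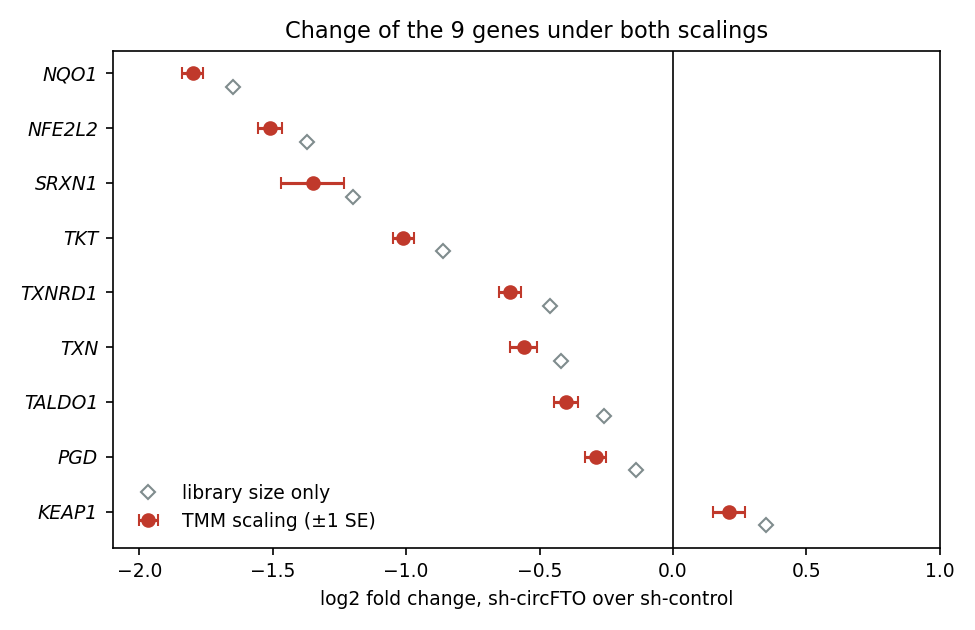
Log2 fold change of sh-circFTO over sh-control (x axis) for the 9 genes, ordered from the largest fall at the top. Filled points are TMM-scaled values with ±1 SE, open diamonds the values with library size as the only scaling, which lie further right by about 0.145 and keep 8 genes below 0 and KEAP1 above it.

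With library size as the only scaling, 1 of the 9 genes was still called higher and 8 lower, against 44.3% and 27.0% of all tested genes. The smallest fall was then that of PGD, -0.14 (adjusted p = 0.0026 by edgeR), and KEAP1 was at 0.35 (adjusted p = 8.4e-06 by edgeR). On the per-length FPKM scale the order of levels was not the same in the groups. In sh-circFTO, TXN was highest at 128 ± 8.22 FPKM and NQO1 next at 88.2 ± 2.66 FPKM (SD, n = 3). In sh-control, NQO1 was highest at 277 ± 6.48 FPKM and TXN next at 171 ± 11.2 FPKM (SD, n = 3). PGD, TALDO1, TXNRD1 and TKT followed in that order in both groups. PGD stood at 76.3 ± 0.736 FPKM in sh-circFTO and 84.1 ± 2.88 FPKM in sh-control. TKT stood at 29.8 ± 0.269 FPKM in sh-circFTO and 54.1 ± 0.636 FPKM in sh-control. Per length, NFE2L2 lay below KEAP1 in sh-circFTO and above it in sh-control, with NFE2L2 at 18.66 to 19.64 and KEAP1 at 20.8 to 23.97 FPKM in sh-circFTO, against 48.49 to 50.77 and 16.76 to 17.84 FPKM in sh-control. In CPM, with no length scaling, NFE2L2 lay above KEAP1 in both groups, at 104 and 74.8 CPM in sh-circFTO and 297 and 64.8 CPM in sh-control. SRXN1 was lowest, at 3.84 ± 0.365 FPKM in sh-circFTO and 8.81 ± 1.27 FPKM in sh-control. Neighbours in these orders did not overlap between libraries, except TALDO1 and TXNRD1 in sh-control. The deposited length is the summed exon length of a gene, 9502 bases for TKT and 1010 for TXN, so per-length levels depend on which exons were annotated.

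Of the other genes that control NRF2, 14 of 15 were tested, 8 rose and 2 fell. The number called is near the share over all tested genes, where 34.9% were called higher and 34.8% lower, 69.7% together. The median log2 fold change was 0.19, against 0.001 over all tested genes. With library size as the only scaling, 9 rose and 1 fell, against 44.3% and 27.0% of all tested genes. SQSTM1, which binds KEAP1 and was at -0.10 (adjusted p = 0.041 by edgeR), was then at 0.05 (adjusted p = 0.274 by edgeR). CUL3 and RBX1, the scaffold and RING subunit of the ligase that KEAP1 serves, rose by 0.33 (SE 0.0507, adjusted p = 1.31e-06 by edgeR) and 0.38 (SE 0.0674, adjusted p = 1.12e-05 by edgeR). GSK3B, a kinase that marks NRF2 for a KEAP1-independent route of degradation, rose to 110 ± 4.82 CPM in sh-circFTO, against 80.5 ± 2.88 CPM in sh-control. NFE2L1, a related transcription factor known for control of proteasome genes, fell to 240 ± 4.91 CPM in sh-circFTO, against 404 ± 13.8 CPM in sh-control, a log2 fold change of -0.75. BACH2 held 5 counts over the sh-circFTO libraries and 8 over the sh-control libraries and was not tested.

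Other known NRF2 targets fell in most cases. Of 29 such genes besides the members, 27 were tested, 24 fell, 2 rose and 1 was not called. Their median log2 fold change was -0.84, and over all tested genes 34.8% were called lower and 34.9% higher. Falls of at least 2-fold were called for 11 of these targets and for 7.62% of all tested genes. The list was chosen with earlier results of these data known, so its direction is a description. AKR1B10, an aldo-keto reductase, fell to 13.8 ± 0.803 CPM in sh-circFTO, against 148 ± 7.7 CPM in sh-control. GPX2, a glutathione peroxidase, had 139, 141 and 138 CPM in sh-circFTO libraries and 531, 590 and 567 CPM in sh-control libraries, a log2 fold change of -2.01. AKR1C1 and AKR1C3, close relatives of each other whose reads may be shared, changed by -0.98 and -1.04. The genes that rose were PRDX1 and ABCC4, an efflux pump, at 0.15 and 0.19 on the log2 scale, and DESeq2 called 1 gene of the whole list higher in place of 2. In RefSeq promoter windows of these other targets, TGACNNNGC occurred in 9 of 24 windows (37.5%), in 9 of the 18 genes that had a window. Over all genes it occurred in 13.3% of 35114 windows, in 4384 of 27303 genes.

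The RNAs of other genes listed for NADPH supply were mixed but mostly lower, and NADPH itself was not measured. Of 19 genes besides PGD, TALDO1 and TKT, 15 were tested, 10 fell and 2 rose, with a median log2 fold change of -0.33. Over all tested genes, 34.8% were called lower and 34.9% higher, 69.7% together. MTHFD2, a mitochondrial folate enzyme, fell to 80.8 ± 2.22 CPM in sh-circFTO, against 285 ± 12.7 CPM in sh-control. ALDH1L2, a mitochondrial enzyme that makes NADPH from formyl folate, fell to 2.59 ± 0.384 CPM in sh-circFTO, against 12.5 ± 0.579 CPM in sh-control. IDH1, the cytosolic NADPH-forming isocitrate dehydrogenase, and H6PD, the pentose phosphate dehydrogenase of the endoplasmic reticulum, changed by -0.54 and -0.63 on the log2 scale. With library size as the only scaling, 4 of the 15 rose and 9 fell, against 44.3% and 27.0% of all tested genes.

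Of the rest of the thioredoxin system, about as many genes were called as over the whole table. Of 22 genes besides the members, 20 were tested, 9 rose, 5 fell and 6 were not called, with a median log2 fold change of 0.13, while 69.7% of all tested genes were called. With library size as the only scaling, 13 rose and 5 fell, against 44.3% and 27.0% of all tested genes. TXNIP, a protein that binds and inhibits thioredoxin, rose to 405 ± 10.6 CPM in sh-circFTO, against 201 ± 4.62 CPM in sh-control, a log2 fold change of 1.01 (SE 0.0402, adjusted p = 3.41e-19 by edgeR). SESN2 and SESN3, stress-induced sestrins, rose by 1.08 and 1.93 on the log2 scale, and SESN3 stood at 19.6 ± 0.337 CPM in sh-circFTO, against 5.15 ± 1.23 CPM in sh-control. PRDX4, the peroxiredoxin of the endoplasmic reticulum, fell to 55.2 ± 0.934 CPM in sh-circFTO, against 84.7 ± 2.71 CPM in sh-control.

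The mitochondrial partners of TXN and TXNRD1 moved the other way. This comparison was chosen after the values were seen. TXN2, mitochondrial thioredoxin, had 86.8, 85.7 and 91.5 CPM in sh-circFTO libraries and 71.9, 64.5 and 76.5 CPM in sh-control libraries, a log2 fold change of 0.31 (SE 0.0595, adjusted p = 3.37e-05 by edgeR). TXNRD2, its reductase, had 29.7, 26.1 and 29.2 CPM in sh-circFTO libraries and 21.7, 24.6 and 23.2 CPM in sh-control libraries, a log2 fold change of 0.29 (SE 0.0873, adjusted p = 0.00482 by edgeR). Both rises were moderate: 70.6% of all tested genes had a lower log2 fold change than TXN2 and 69.0% than TXNRD2. The FPKM ratio of TXN to TXN2 was 2.16, 2.36 and 2.33 in sh-circFTO libraries and 4.15, 4.28 and 4.14 in sh-control libraries. The ratio of TXNRD1 to TXNRD2 was 11.3, 13.0 and 11.6 in sh-circFTO libraries and 23.9, 19.7 and 23.1 in sh-control libraries. Both ratios were lower in every sh-circFTO library, by 0.88 and 0.89 on the log2 scale (two-sided exact permutation p = 0.1 for each, and 0.117 adjusted over 7 ratios).

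**Figure D3:**
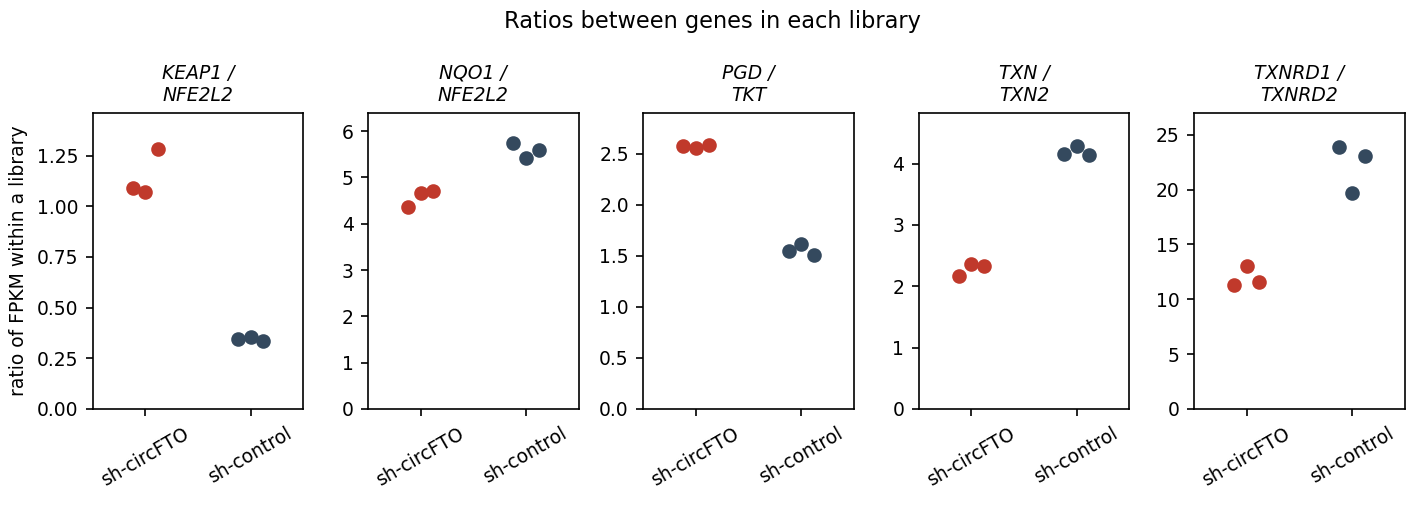
Ratio of the FPKM of 2 genes within each library (y axes, from 0), sh-circFTO left and sh-control right, 1 point per library (n = 3 each). KEAP1 to NFE2L2 and PGD to TKT are higher in all sh-circFTO libraries, and NQO1 to NFE2L2, TXN to TXN2 and TXNRD1 to TXNRD2 are lower in all of them.

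Among other quinone and flavin reductases, 7 of 9 were tested, 6 fell and 1 rose, with a median log2 fold change of -0.69. Over all tested genes, 34.8% were called lower and 34.9% higher. AIFM2, known as a reducer of coenzyme Q in the plasma membrane, POR, the electron donor of cytochromes P450, and CYB5R3 and CYB5R1, cytochrome b5 reductases, changed by -0.82, -0.69, -0.81 and -1.23 on the log2 scale. The gene that rose was CYB5R4, at 0.40 on the log2 scale (adjusted p = 0.000234 by edgeR). Of the genes not tested, CBR3 held 0 counts in every library, and CYB5R2 held 90 counts over the sh-circFTO libraries and 23 over the sh-control libraries. NQO2, the paralogue of NQO1, was at 26.6 ± 0.519 CPM in sh-circFTO and 30.5 ± 1.4 CPM in sh-control, a log2 fold change of -0.20 (adjusted p = 0.0319 by edgeR) that was not called with library size as the only scaling (-0.05, adjusted p = 0.589 by edgeR).

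**Figure D4:**
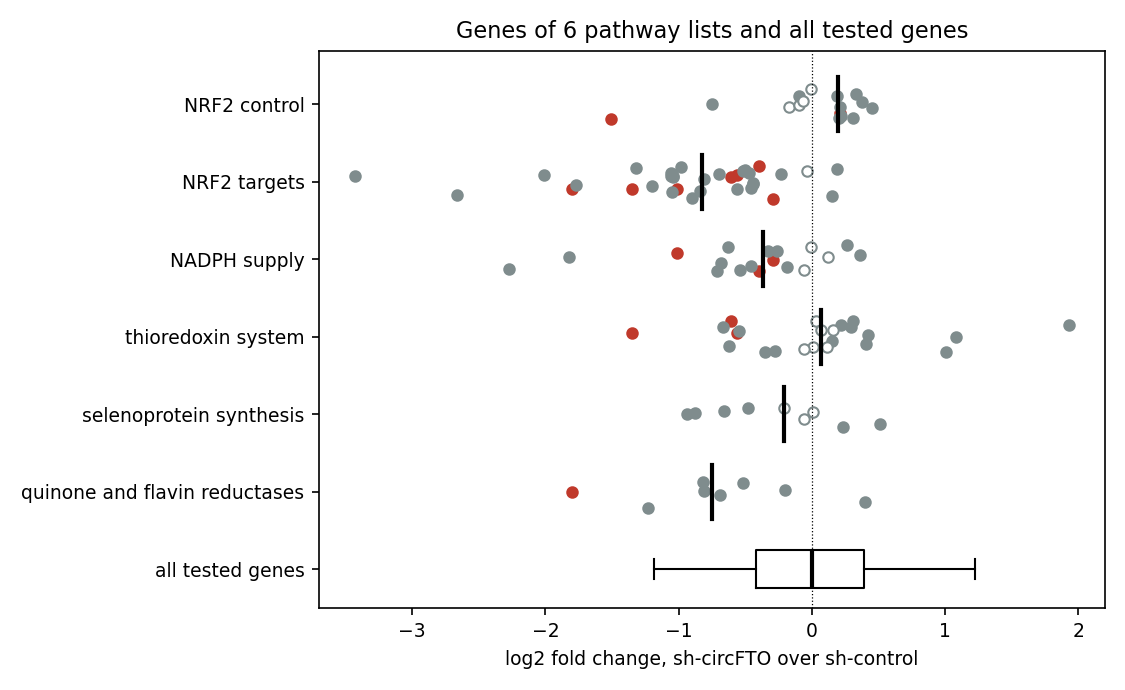
Log2 fold change of sh-circFTO over sh-control (x axis) for each tested gene of 6 pathway lists, members in red, other genes in grey, genes not called as open points, and a black bar at each list's median. The box at the bottom gives all 12865 tested genes, from the 25th to the 75th percentile (-0.42 to 0.39), with whiskers at the 5th and 95th (-1.19 and 1.23), and the medians of NRF2 targets (-0.83) and of quinone and flavin reductases (-0.75) lie left of that box.

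Reads shared with other genes could touch a few values. TXNRD1 spans RPL18AP3, a processed pseudogene of a ribosomal protein gene, whose counts came to 21.5% of those of TXNRD1, and no annotated TXNRD1 exon overlaps it in GENCODE release 29. The other annotated genes within the span of a member held 1.98% of its counts or fewer each, and the pseudogenes named after TXN and PGD held 0.066% or fewer each.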

How the data were processed

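RNA of 6 HepG2 libraries was made into libraries with a SMARTER mRNA-Seq kit, per the labels' protocols. The authors deposited 1 table with raw counts per Ensembl gene and with FPKM values. The deposited FPKM equalled count over exonic length and library total (0 of 363630 values differed by more than 0.00501). The sources used here name no aligner, counter, strand setting or annotation release. Builds in the submitters' processing notes are GRCm38, mm10 and hg18, yet 56727 of 60605 genes lay within 5000 bp of their place in GENCODE release 29, so coordinates are on GRCh38.

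A gene was tested if its FPKM reached 1 in 3 or more libraries. Library totals were scaled by TMM, and edgeR 4.0.16 (R 4.3.3) compared sh-circFTO with sh-control by its quasi-likelihood test, with Benjamini-Hochberg adjustment at 0.05. CPM is TMM-normalised, and the SE is the log2 fold change over the root of the F statistic. On data simulated with 12865 genes, the test found 48% of 50 genes with a 1.25-fold change and 74% of 50 at 1.5-fold. It found 92% of 50 at 2-fold and 96% of 50 at 4-fold. No other gene was changed in the simulation, while 69.7% of tested genes were called in the data. The adjusted p is therefore stricter in the simulation, and these shares do not give the power of the real comparison. Libraries of 1 group differed by a chi-square per degree of freedom of 2.05 to 4.6, so none was a copy of another.

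Ratios of FPKM within a library were compared by exact permutation, adjusted over 7 ratios, of which TXN to TXN2 and TXNRD1 to TXNRD2 were added after values were seen. Named were the members, from each of 6 lists the 4 other genes with the smallest adjusted p, FTO, PRDX1 and the 3 genes most like NQO1; other genes were named after their values were seen. Members and lists were chosen with earlier results of these data known. Promoter sequences are from RefSeq (GRCh38.p14). Alternatives were median-of-ratios factors, no scaling, other filters, DESeq2 1.42.0, a replicate block and each library left out.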

Additional observations from a re-analysis of the deposited data

How the results depend on the processing

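The 8 falls kept their direction and their call in all 12 alternatives, with log2 fold changes of -1.82 to -1.65 for NQO1, -1.54 to -1.37 for NFE2L2 and -0.31 to -0.14 for PGD. KEAP1 ranged from 0.14 to 0.35 (0.14 to 0.25 with 1 library left out) and lost its call without sh-circFTO replicate 3 (0.14). Leaving out 1 library each gave 0 to 1 members higher and 8 members lower. Over whole lists, it gave 0 to 2 higher NRF2 targets and 1 to 3 higher NADPH supply genes, each against 2; no NRF2 target was higher without sh-control replicate 2, 1 was without sh-circFTO replicate 2 or sh-control replicate 1, and 1 NADPH supply gene was higher without sh-control replicate 1. Higher NRF2 targets numbered 1 with DESeq2, with filterByExpr and with no filter. Higher NADPH supply genes numbered 4 with library size only, and higher quinone and flavin reductases numbered 2, against 1, with filterByExpr and with no filter, which also test more genes. The other causes were not tested. FTO, at -0.01 and not called, was at 0.14 with library size only (adjusted p = 0.0413 by edgeR), and at 0.01, 0.00 and 0.01 without sh-circFTO replicate 1, sh-circFTO replicate 2 and sh-control replicate 1, in a range of -0.03 to 0.01 with 1 library left out. PRDX1 lost its call without sh-control replicate 2 (0.08). The deviations of same-numbered libraries were nearly uncorrelated (r = -0.01, -0.009 and 0.047 over 12865 genes), so no pairing was detected. With 3 libraries per group, these values cannot decide whether a number marks a shared culture. With the replicate block, 4509 genes were higher and 4490 lower, and the members gave 1 higher and 8 lower. Depth limited SRXN1 most, with 425 and 1031 counts.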

Other observations

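TXNRD1 is a selenoprotein. Of 9 genes listed for selenoprotein synthesis, all tested, 4 fell, 2 rose and 3 were not called, with a median log2 fold change of -0.21. That count is near the background, since 34.8% of all tested genes were called lower and 34.9% higher. SEPHS1, a relative of selenophosphate synthetase, fell to 73.0 ± 2.02 CPM in sh-circFTO, against 135 ± 7.35 CPM in sh-control. SARS1, the seryl-tRNA synthetase that charges the selenocysteine tRNA with serine, fell to 129 ± 6.61 CPM in sh-circFTO, against 248 ± 7.99 CPM in sh-control. EEFSEC, the elongation factor for selenocysteine, and SEPSECS, which makes selenocysteine on its tRNA, changed by -0.66 and -0.48 on the log2 scale. SEPHS2, the selenophosphate synthetase, was at 246 ± 9.57 CPM in sh-circFTO and 243 ± 8.45 CPM in sh-control, with a log2 fold change of 0.01 (adjusted p = 0.777 by edgeR). TRNAU1AP, which binds the selenocysteine tRNA, rose by 0.51. The other listed gene that rose was XPO1, a general nuclear export factor, at 0.23 (adjusted p = 6.98e-06 by edgeR).

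The genes whose pattern over the 6 libraries was most like that of NQO1 were HMGB2, a chromatin protein, TOMM20, a receptor of mitochondrial protein import, and CPED1. The root mean square difference of centred log2 CPM was 0.015 for HMGB2, 0.0352 for TOMM20 and 0.0394 for CPED1. HMGB2 had 84.1, 90.4 and 86.9 CPM in sh-circFTO libraries and 298, 298 and 316 CPM in sh-control libraries. With 2 groups and 6 libraries this likeness mostly reflects an equal fold change.

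ME1, cytosolic malic enzyme and a known NRF2 target, held 2 counts over the sh-circFTO libraries and 2 over the sh-control libraries, and it was not tested.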
